A study of Mus musculus with 2 samples.

Results

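RS.3 is the last of 3 round spermatid stages that the authors annotated in mouse spermatogenesis, between RS.2 and the elongated spermatids (ES). Its members were all wild-type cells whose annotated stage was RS.3, which gave 393 of the 8420 annotated wild-type cells (4.67%, exact Clopper-Pearson 95% interval 4.23 to 5.14%) and of 17253 annotated cells in both libraries. The 393 cells made up 1 cluster of the authors, number 20. The second library, of genotype Zfp541-/-, had 0 RS.3 cells among its 8833 annotated cells, so that its RS.3 share can be at most 0.0340% by counting error.

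RS.3 cells were described against 619 RS.2 cells and 111 ES cells of the same wild-type library. All 3 groups came from adult C57BL/6 testis of genotype WT, and the sources used here do not say how many mice were behind the library. Germ cells were released by enzymatic digestion, sorted by flow cytometry and loaded on the 10x Chromium system, whose 3′ kit counts molecules near transcript ends as unique molecular identifiers (UMIs). The protocol states that tetraploid cells were sorted, whereas spermatids are haploid and the sample titles name whole testis, so the share of RS.3 cells is that of the sorted library and not of the testis. The stages were cut from the same expression values that are described here, and 1 library holds every RS.3 cell. No test was therefore possible, cells were not treated as replicates, and every interval below is a 95% interval for counting error only. The libraries shared 17 annotated barcodes, and 1 RS.3 barcode also occurred in the barcode list of the Zfp541-/- library.

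Round spermatids are haploid cells that build the acrosome, a secretory cap over the nucleus, and start the flagellum. As they elongate, a microtubule skirt called the manchette shapes the nucleus, histones are replaced by transition proteins and then by protamines, and transcription shuts down. Many late spermatid mRNAs are made before that arrest and stored for later translation, so an mRNA level in these cells is not a protein level.

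RS.3 cells were the deepest of the 3 stages. The median cell had 14023 UMIs and 3602 genes in RS.2, 19631 UMIs and 3891 genes in RS.3, and 6480 UMIs and 1326 genes in ES. RS.3 cells ranged between 1801 and 56299 UMIs. Summed over cells, the stages held 9312689, 7778305 and 849403 UMIs in that order. With each cell thinned to 5836 UMIs, the median number of genes was 2264 in RS.2, 2197.5 in RS.3 and 1294.5 in ES, after 59, 11 and 43 shallower cells were left out. Levels are given as counts per 1000000 UMIs (CPM) of the summed stage, and a level is therefore relative to all other RNA of that stage. In 122 cells annotated before pachytene, which should lack spermatid RNA, Prm1 had 210.5 CPM, Prm2 170.3 CPM, Tnp1 89.8 CPM and Tnp2 80.5 CPM. In the stages of mid pachytene to the first meiotic division, Prm1 had 75.5 to 108 CPM and Prm2 50.4 to 93.1 CPM. The summed level of 10 Sertoli markers was 14.7 CPM in RS.3, 7.4 CPM in RS.2 and 5.9 CPM in ES. Of these 10 markers, 6 had 0 UMIs in RS.3, Sox9, Wt1 and Amh among them. Clu with 43, Dhh with 42 and Ctsl with 28 UMIs made up nearly all of that sum. The 8 Leydig markers summed to 1.3 CPM and the 8 peritubular myoid and endothelial markers to 5.7 CPM in RS.3, and the part of these cells in the results was not tested.

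The 5 markers given for the stage did not all have their highest level in it. Tssk1, a serine kinase of spermatids, was highest in RS.3 of all wild-type stages with at least 50 cells, at 1.42 times the level of RS.2, the next stage. Catsper4, a pore subunit of the sperm calcium channel, was also highest in RS.3, at 1.40 times RS.2. Tssk2, a paralogous kinase encoded beside Tssk1 on chromosome 16, had 1759 CPM in RS.3 and 1676 CPM in ES, a ratio of 1.05 whose interval on the log2 scale, -0.01 to 0.15, includes 0. Lyzl1, a lysozyme-like acrosomal protein, had 789.5 CPM in RS.3 and 794 CPM in RS.2, again with an interval that includes 0 (-0.06 to 0.04). Tnp1, transition protein 1, was not highest in RS.3: it had 449 CPM in RS.2, 10769 CPM in RS.3 and 41165 CPM in ES. Of 12 early round spermatid markers that passed the filter, all were within 2-fold of RS.2 in RS.3. Of these, 11 were at least 2-fold higher in RS.3 than in ES, beside 54.8% of all genes. Of 16 elongating spermatid markers, 11 were at least 2-fold higher in RS.3 than in RS.2, beside 19.1% of all genes. Against ES, 9 were at least 2-fold lower in RS.3, beside 6.63% of all genes. The median log2 ratio to ES of these 16 markers, -1.09, turns to 0.28 in UMIs per cell.

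Across all genes, more genes differed by 2-fold between RS.3 and ES than between RS.3 and RS.2. Among 7295 genes with at least 10 CPM in RS.3 or RS.2, 1392 were at least 2-fold higher in RS.3 (19.1%) and 1953 at least 2-fold lower (26.8%). Among 6243 genes with at least 10 CPM in RS.3 or ES, 3419 were at least 2-fold higher in RS.3 (54.8%) and 414 at least 2-fold lower (6.63%). These splits depend on the scaling. The median log2 ratio over the genes tested was -0.54 for RS.3 over RS.2 and 1.18 for RS.3 over ES. With the 20 genes of most UMIs left out of the totals, these medians were -0.45 and 0.61. Relative to those medians, 1908 genes were higher (26.2%) and 726 lower (9.95%) in RS.3 than in RS.2, and 1730 were higher (27.7%) and 1498 lower (24.0%) in RS.3 than in ES. In UMIs per cell, RS.3 had 1.32 times the total of RS.2 and 2.59 times that of ES, and on that scale 64 genes were lower and 5418 higher in RS.3 than in ES. Counts of list members are given below on the CPM scale and, where they differ, relative to the all-gene median.

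Placing both comparisons together, 6084 genes reached 10 CPM in both. Of these, 2095 (34.4%) were within 2-fold of RS.2 and at least 2-fold higher in RS.3 than in ES. A further 768 (12.6%) were lower in RS.3 than in RS.2 and higher than in ES. Higher in RS.3 than in both neighbours were 556 genes (9.14%). The ascending pattern, higher in RS.3 than in RS.2 and lower than in ES, held for 231 genes (3.8%). On the CPM scale, the plot of list members shows how the functional groups divide between these patterns.

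**Figure D1:**
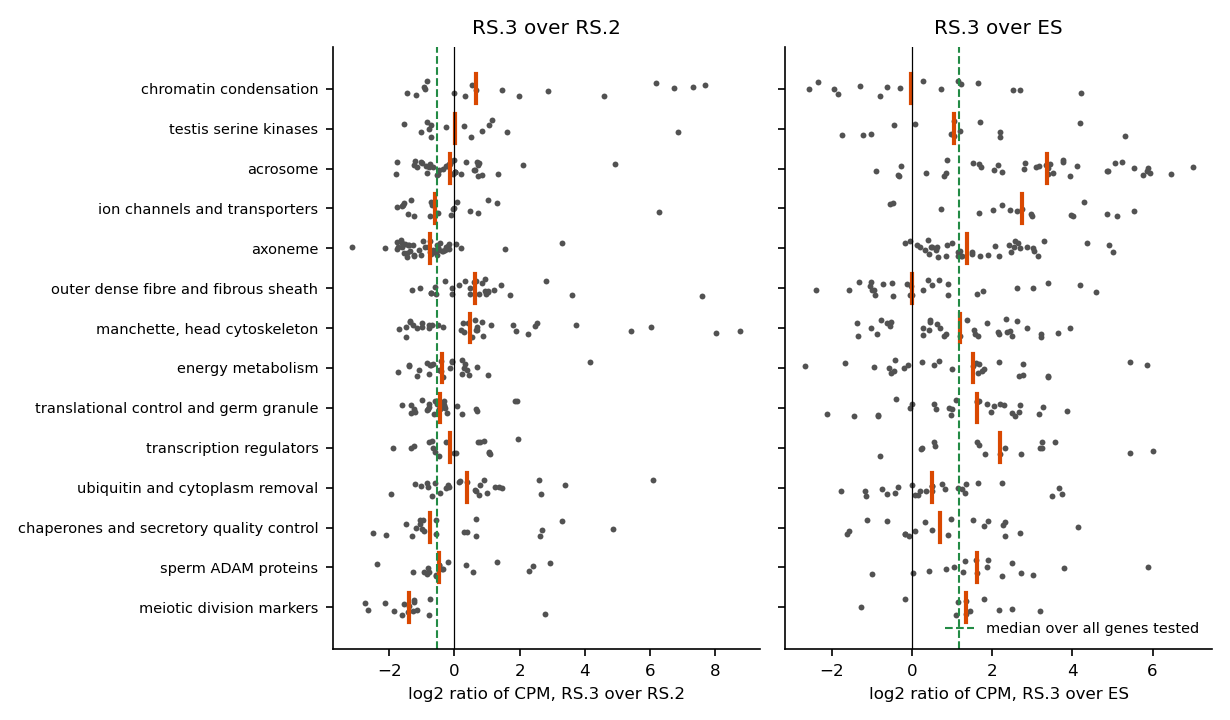
Log2 ratio of CPM of RS.3 over RS.2 (left) and RS.3 over ES (right) for members of 14 gene lists with at least 10 CPM in either stage; grey points are genes, orange bars list medians, the green dashed line the median over all genes tested (-0.54 and 1.18). Acrosome genes lie near 0 against RS.2 and have a median of 3.36 against ES, while chromatin condensation genes reach 7.69 against RS.2; ratios between 0 and the dashed line change sign when scaled to the all-gene median.

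Prm1, Prm2, Tnp1 and Tnp2, which package sperm DNA, were far higher in RS.3 than in RS.2. Prm1 and Prm2 encode the protamines, which compact sperm chromatin, and Tnp1 and Tnp2 the transition proteins that precede them. Prm1 had 120 CPM in RS.2, 24934 CPM in RS.3 and 148398 CPM in ES. Its log2 ratio was 7.69 against RS.2 (7.61 to 7.78) and -2.57 against ES (-2.58 to -2.56). Prm2 had 107, 17151 and 86886 CPM in these stages, and its log2 ratio was 7.33 against RS.2 and -2.34 against ES. Tnp2 had 149, 16040 and 57577 CPM, with log2 ratios of 6.75 and -1.84. Prm1 and Prm2 in RS.2 lay below their CPM in the cells before pachytene and above their CPM in mid pachytene to the first meiotic division. Per cell, Prm1 had 1.81 UMIs in RS.2 and 0.557 UMIs in the cells before pachytene, and Prm2 had 1.61 and 0.451 UMIs in these groups. How much of the protamine UMIs in RS.2 came from free RNA was not tested. Tnp1 and Tnp2 in RS.2 lay above their CPM in the cells before pachytene. All 4 genes stayed lower in RS.3 than in ES also per cell, where ES has fewer UMIs.

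The 4 genes together took 0.0825% of all UMIs in RS.2, 6.89% in RS.3 and 33.4% in ES. RS.3 cells differed widely among themselves in this share. The lowest RS.3 cell had 0.163%, the median cell 3.11% and the highest 27.3%. Of 393 cells, 162 were under 1% and 105 were at 10% or above. In RS.2 the median cell had 0.0521% and 2 of 619 cells exceeded 1%, and in ES the median cell had 34.0% and all 111 cells exceeded 10%. RS.3 thus spanned nearly the whole range between its neighbours. Without these 4 genes, the mean UMIs per cell were 15032 in RS.2, 18429 in RS.3 and 5096 in ES.

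**Figure D2:**
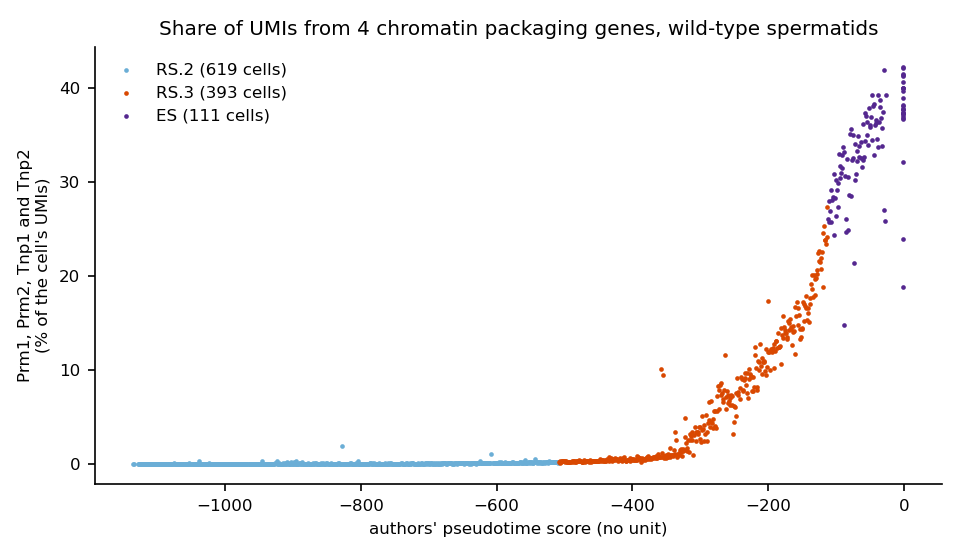
Percent of each cell's UMIs from Prm1, Prm2, Tnp1 and Tnp2 against the authors' pseudotime score (no unit), for 619 RS.2, 393 RS.3 and 111 ES cells of the wild-type library; each point is 1 cell. RS.2 cells lie near 0, RS.3 cells run between 0.163% and 27.3%, and the median ES cell is at 34.0%.

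The bases just upstream of these 4 genes are shown because the genes are highest together within RS.3. They are the 120 bases before the transcription start in RefSeq's GRCm38.p6 annotation, on the minus strand for all 4, at chr1:73015900-73016019 for Tnp1, chr16:10788656-10788775 for Tnp2, chr16:10796824-10796943 for Prm1 and chr16:10792106-10792225 for Prm2. Tnp2, Prm2 and Prm1 are neighbours on chromosome 16. Capitals mark a match, on either strand, to TGACNTCA, a cAMP response element with any base at the position written N, in Tnp1 and Prm1, and to TATAAA in Prm2, where no TGACNTCA match occurred. Tnp2 had no match to either.
Tnp1: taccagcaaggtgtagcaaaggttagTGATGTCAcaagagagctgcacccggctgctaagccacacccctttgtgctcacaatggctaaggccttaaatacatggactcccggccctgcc
Tnp2: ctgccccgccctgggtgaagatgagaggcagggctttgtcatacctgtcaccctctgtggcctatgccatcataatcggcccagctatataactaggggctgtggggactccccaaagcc
Prm1: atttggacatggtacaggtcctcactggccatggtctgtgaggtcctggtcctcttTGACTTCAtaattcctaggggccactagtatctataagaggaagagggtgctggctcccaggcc
Prm2: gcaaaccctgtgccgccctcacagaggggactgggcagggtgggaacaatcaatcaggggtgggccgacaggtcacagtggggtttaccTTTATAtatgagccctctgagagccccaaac

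The match lay at -94 to -87 in Tnp1 and at -64 to -57 in Prm1, counted back from the start, and the TATAAA match of Prm2 at -31 to -26. The shares of promoters below were counted over the whole stored sequence of each promoter, which is longer than the bases printed above. They are therefore not a background for the printed matches. TGACNTCA occurred in 8.83% of 32851 promoters and in 10.96% of the promoters of genes tested between RS.3 and RS.2. Among the genes at least 2-fold higher in RS.3 than in RS.2 it occurred in 242 of 1361 promoters (17.8%), and among the lower genes in 125 of 1835 (6.81%). The full form TGACGTCA did not show such a split, with 3.31% of the higher and 2.94% of the lower promoters. It occurred in 3.49% of the promoters of genes tested and in 1.79% of all promoters. TATAAA occurred in 8.96% of the higher, 7.19% of the lower, 8.01% of the tested and 13.6% of all promoters. The form with any middle base was chosen after the 4 sequences had been read, and a match is a description of letters and not of binding.

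Other chromatin genes showed 3 patterns in RS.3. H1fnt, a linker histone of spermatids, had 137 CPM in RS.2, 1000 CPM in RS.3 and 1526 CPM in ES. Hmgb4, a high mobility group protein, had 389, 1545 and 2691 CPM. H2al2a, an H2A variant that acts with the transition proteins, had 8.05, 597 and 1461 CPM, and its reads may be shared with near-identical copies. Lower in RS.3 than in ES by CPM, these 3 genes turn to log2 ratios of 0.76 (H1fnt), 0.57 (Hmgb4) and 0.079 (H2al2a) in UMIs per cell. Prm3, encoded between Prm2 and Tnp2, was within 2-fold of ES in RS.3 (3023 CPM in RS.3 and 3710 CPM in ES, with a log2 ratio of -0.30 that turns to 1.08 in UMIs per cell) but 2.73-fold higher than in RS.2. Hils1, a spermatid linker histone, was higher in RS.3 than in either neighbour by less than 2-fold, with 1421, 2081 and 1255 CPM. The replacement histone gene H3f3b was lower in ES instead, with 2636 CPM in RS.2, 3290 CPM in RS.3 and 178 CPM in ES, an 18.4-fold difference between RS.3 and ES. Of the 17 chromatin list genes that passed the filter against RS.2, 8 were at least 2-fold higher in RS.3 and 2 lower, against 19.1% and 26.8% of all genes. Scaled to the all-gene median, 10 were higher and 0 lower, beside 26.2% and 9.95%. Against ES, 6 of 16 were higher and 5 lower, beside 54.8% and 6.63% of all genes. Relative to the all-gene median, 3 were higher and 8 lower than in ES, beside 27.7% and 24.0%. The 2 lower than RS.2 included Kat5, an acetyltransferase of histone H4, with 7.20 CPM in RS.3 and 20.1 CPM in RS.2.

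RS.3 was not uniform along the authors' pseudotime. The sources used here do not say how that order was made. It may rest on the same cells' expression, so the trends below describe it and do not test it. Among 6926 genes compared between the latest and earliest 131 RS.3 cells, 1076 were at least 2-fold higher late (15.5%) and 2271 lower (32.8%), with a median log2 ratio of -0.64. Relative to that median, 1524 were higher (22.0%) and 941 lower (13.6%). Over 10 equal groups of 39 or 40 cells, Prm1 had 72673 CPM in the latest group and 310.2 CPM in the earliest, a 234-fold difference, and the earliest group held 4.90 Prm1 UMIs per cell. Prm2 was 191-fold, Tnp2 53.9-fold and Tnp1 17.7-fold higher in the latest than in the earliest group. The transition protein genes started higher, with 1521 CPM of Tnp1 and 821 CPM of Tnp2 in the earliest group. All 4 genes first passed 50% of their latest level in group 8. In group 4, Tnp1 was at 11.8% of its latest level, Tnp2 at 6.42%, Prm1 at 4.83% and Prm2 at 4.67%. In group 7 these shares were 45.3% for Tnp1, 40.4% for Tnp2, 37.3% for Prm1 and 44.0% for Prm2, so that Tnp1 was ahead of Prm1 in both groups.

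H3f3b stayed between 4052 and 4879 CPM over the earliest 6 groups and had 2459 CPM in group 8, 1199 CPM in group 9 and 297 CPM in group 10. Spaca1, an acrosomal membrane protein, had 158 CPM in the latest and 977 CPM in the earliest group. Lyzl1 had 362 CPM in the latest and 1323 CPM in the earliest group, and Crem, the transcription factor that activates many spermatid genes, 127 CPM in the latest and 535 CPM in the earliest. Tssk1 stayed between 1078 and 1327 CPM, and Prm3 between 2668 and 3316 CPM. The total UMIs per cell were higher late, with a mean of 24698 in the latest and 15796 in the earliest group, so that a constant UMI number per cell would give a lower CPM late. Without the 4 packaging genes these means were 20016 in the latest and 15750 in the earliest group.

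**Figure D3:**
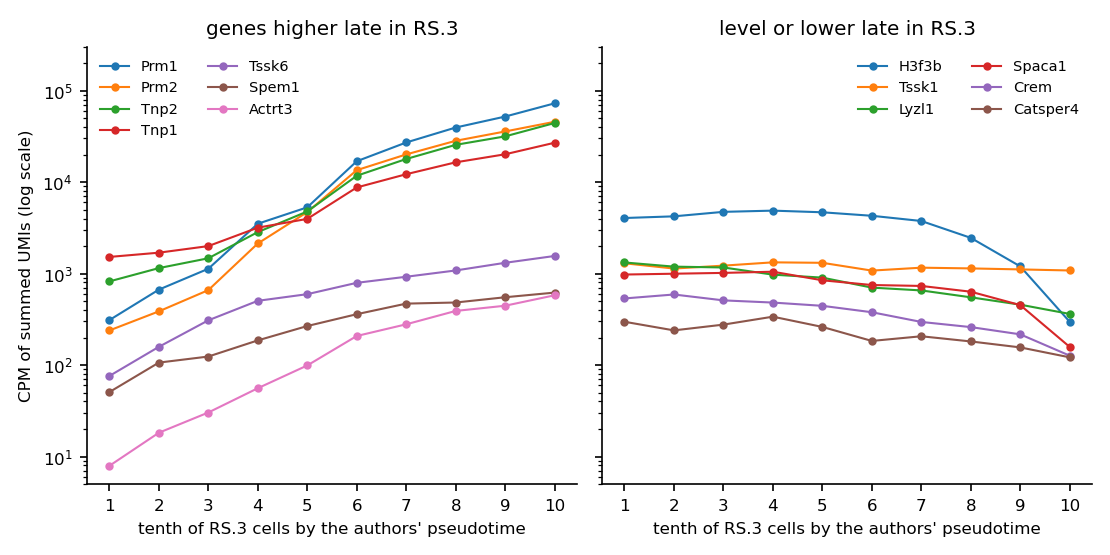
CPM of summed UMIs (log axis) over 10 groups of 39 or 40 RS.3 cells ordered by the authors' pseudotime; each line is 1 gene. Prm1 runs between 310.2 and 72673 CPM, Tssk1 stays between 1078 and 1327 CPM, and H3f3b is at 297 CPM in the last group.

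The testis-specific serine kinases, which phosphorylate spermatid proteins and are needed for male fertility, did not share 1 pattern. Tssk6 showed the steepest difference, with 6.66 CPM in RS.2, 789 CPM in RS.3 and 2641 CPM in ES, a log2 ratio of 6.88 against RS.2 (6.53 to 7.27) and of -1.74 against ES (-1.81 to -1.67). Within RS.3 it had 1558 CPM in the latest and 76.0 CPM in the earliest of the 10 groups. Its RS.2 level lay below its 12.4 CPM (4 UMIs) in the cells before pachytene and near its 6.07 CPM in mid pachytene. How much of the Tssk6 UMIs in RS.2 came from free RNA was not tested. Tssk3 had 110.5, 335 and 777 CPM in the 3 stages. Its difference from ES (log2 ratio -1.21) turns to 0.16 in UMIs per cell. Tssk1 was 2.09-fold higher in RS.3 than in ES on the CPM scale and -0.12 on the log2 scale relative to the all-gene median. Tssk4 and Tssk5 belonged to the round spermatid side. Tssk4 had 225 CPM in RS.3 and 272 CPM in RS.2 but 11.8 CPM in ES. Tssk5 had 1.00 CPM in the latest and 67.1 CPM in the earliest 131 RS.3 cells, and 0 UMIs in ES, so that RS.3 as a whole, at 23.4 CPM, was at least 6.62-fold higher than ES. Tsks, a substrate of these kinases, was 2.25-fold higher in RS.3 (598 CPM) than in RS.2 (266 CPM). Of the 14 kinase list genes, 4 were higher and 2 lower in RS.3 than in RS.2, beside 19.1% and 26.8% of all genes. Those counts were 6 and 1 relative to the all-gene median, beside 26.2% and 9.95%. Against ES, 8 were higher and 3 lower, beside 54.8% and 6.63% of all genes. Relative to the all-gene median, 4 were higher and 5 lower than in ES, beside 27.7% and 24.0%.

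RS.3 held acrosome RNA at levels near those of RS.2 and mostly far above those of ES. Of 38 acrosome genes that passed the filter, 29 were within 2-fold of RS.2, 3 were higher and 6 lower, against 19.1% and 26.8% of all genes. With scaling to the all-gene median, 10 were higher and 2 lower than in RS.2, beside 26.2% and 9.95%. Against ES, 30 of 38 were at least 2-fold higher in RS.3 and 0 lower on the CPM scale, beside 54.8% and 6.63% of all genes. Their median log2 ratio was 3.36, beside 1.18 over all genes. Relative to the all-gene median, 25 were higher and 4 lower than in ES, beside 27.7% and 24.0%. Spaca1 had 728 CPM in RS.3, 727 CPM in RS.2 and 11.8 CPM in ES, a 58.9-fold difference from ES. Its ES level lay below its 18.6 CPM (6 UMIs) in the cells before pachytene. Acrv1, an acrosomal vesicle protein, had 449 CPM in RS.3, 443 CPM in RS.2 and 7.06 CPM in ES. Fam209, an acrosomal membrane protein, had 2118 CPM in RS.3 and 23.5 CPM in ES, and was 1.64-fold higher in RS.3 than in RS.2. Lyzl6, a lysozyme-like protein, was 128-fold higher in RS.3 than in ES, where 3 UMIs were counted (log2 interval 5.67 to 9.50).

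Among genes of sperm-egg fusion on this list, Izumo1, the sperm ligand of the egg receptor Juno, had 222 CPM in RS.3, 136 CPM in RS.2 and 7.06 CPM in ES. Spaca6, which encodes another protein required for fusion, was 2.54-fold higher in RS.3 (138 CPM) than in RS.2 (54.3 CPM) and 33.6-fold higher than in ES, where it had 3 UMIs. Izumo2 was within 2-fold of ES, with 877 CPM in RS.3 and 686 CPM in ES. The 3 acrosome genes higher than RS.2 were Spaca6, Fbxo24, an F-box protein of sperm, and Sppl2c, an intramembrane protease of spermatids. Sppl2c had 6.76 CPM in RS.2, 208 CPM in RS.3 and 383 CPM in ES, a 30.5-fold difference between RS.3 and RS.2. The 6 lower ones included Zpbp2, a zona pellucida binding protein, with 152 CPM in RS.3 and 524 CPM in RS.2, and Dpy19l2, which anchors the acrosome to the nucleus, with 12.1 CPM in RS.3 and 41.3 CPM in RS.2. Both genes are also transcribed in spermatocytes, where Zpbp2 had 727 CPM and Dpy19l2 106 CPM at the first meiotic division.

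The CatSper channel, a sperm-specific calcium channel of the flagellum, was split by subunit. The pore genes Catsper1, Catsper3 and Catsper4 were within 2-fold of RS.2, with 19.4, 247 and 218 CPM in RS.3 and 19.4, 257 and 155 CPM in RS.2. The pore gene Catsper2 had 39.5 CPM in RS.3, 94.1 CPM in RS.2 and 164 CPM at the first meiotic division. The auxiliary genes Catsperg2 and Catspere2 were likewise 2.71-fold and 2.94-fold lower in RS.3 than in RS.2. Catsperd, another auxiliary subunit, had 49.9 CPM in RS.2, 82.4 CPM in RS.3 and 120 CPM in ES. Of 20 channel and transporter genes, 3 were higher and 7 lower in RS.3 than in RS.2, beside 19.1% and 26.8% of all genes. Those counts were 5 and 4 relative to the all-gene median, beside 26.2% and 9.95%. Against ES, where 54.8% of all genes were higher and 6.63% lower, 14 of 17 were higher and 0 lower. Relative to the all-gene median, 12 were higher and 2 lower than in ES, beside 27.7% and 24.0%. The list median against ES was 2.75, and 2.61 with genes absent from ES set at the bound of 3 UMIs. The 3 higher than RS.2 were Lrrc52, the partner of the sperm potassium channel, Atp1a4, the sperm sodium pump, and Slc36a3, of an amino acid transporter family. Slc36a3 had its highest level in RS.3, with 1.29 CPM in RS.2, 104 CPM in RS.3 and 4.71 CPM in ES.

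The axoneme is the microtubule core of the tail. Of 48 axoneme genes, 26 were within 2-fold of RS.2, 2 were higher and 20 lower in RS.3, against 19.1% of all genes higher and 26.8% lower. Relative to the all-gene median, 2 were higher and 9 lower, beside 26.2% and 9.95%. Against ES, 25 of 40 were higher and 0 lower, beside 54.8% and 6.63% of all genes. Their median log2 ratio to ES was 1.37, beside 1.18 over all genes. Relative to the all-gene median, 15 were higher and 3 lower than in ES, beside 27.7% and 24.0%. Rsph1, a radial spoke protein, had 376 CPM in RS.3, 1150 CPM in RS.2 and 3154 CPM at the first meiotic division. Ccdc39, which sets the spacing of dynein arms, had 17.9 CPM in RS.3 and 59.4 CPM in RS.2. The tektins Tekt2 and Tekt4 were within 2-fold of RS.2 but 30.0-fold and 32.4-fold higher in RS.3 than in ES. The 2 higher axoneme genes were Tekt5, a tektin of late spermatids, with 11.2 CPM in RS.2, 110 CPM in RS.3 and 45.9 CPM in ES, and Ropn1, a fibrous sheath protein, with 415, 1206 and 1096 CPM.

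The outer dense fibres, fibrous sheath and mitochondrial sheath, which surround the axoneme, are built later. Of 28 genes, 8 were higher and 2 lower in RS.3 than in RS.2, against 19.1% and 26.8% of all genes, or 17 higher and 0 lower relative to the all-gene median, against 26.2% and 9.95%. Against ES, 7 were higher and 5 lower, beside 54.8% and 6.63% of all genes. Relative to the all-gene median, 5 were higher and 15 lower than in ES, beside 27.7% and 24.0%. Akap4, the main fibrous sheath scaffold, had 113 CPM in RS.2, 305 CPM in RS.3 and 756 CPM in ES, a difference from ES that turns to 0.06 on the log2 scale in UMIs per cell. Spata18, a mitochondrial quality protein, had 61.7, 436 and 1279 CPM. Spata3 had 54.3, 669 and 1387 CPM, and its log2 ratio to ES of -1.05 turns to 0.32 in UMIs per cell. The 2 lower genes were Fsip1 and Fsip2, proteins of the fibrous sheath. Fsip1 had 21.3 CPM in the latest and 205 CPM in the earliest 131 RS.3 cells, and 3.53 CPM (3 UMIs) in ES.

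Genes of the manchette, the nuclear envelope and the head cytoskeleton held some of the largest differences from RS.2. Of 36 genes, 11 were higher and 7 lower in RS.3 than in RS.2, beside 19.1% and 26.8% of all genes. Those counts were 18 and 1 relative to the all-gene median, beside 26.2% and 9.95%. Against ES, 18 of 35 were higher and 3 lower, beside 54.8% and 6.63% of all genes. Relative to the all-gene median, 10 were higher and 8 lower than in ES, beside 27.7% and 24.0%. Spem1, a cytoplasmic protein needed for cytoplasm removal, had 5.26 CPM in RS.2, 346 CPM in RS.3 and 885 CPM in ES, and its log2 ratio to ES of -1.35 is 0.02 in UMIs per cell. Klc3, a kinesin light chain that binds outer dense fibres and mitochondria, had 550 UMIs in RS.3 and 1 UMI in RS.2, a log2 ratio of 8.78 (6.88 to 14.67). Hook1, a manchette linker, was 3.69-fold higher in RS.3 than in RS.2. Several of these genes were higher in RS.3 than in both neighbours, a pattern that 9.14% of all genes showed at 2-fold or more. Actrt3, an actin-related protein of the perinuclear theca, had 0.859 CPM in RS.2, 236 CPM in RS.3 and 75.3 CPM in ES. Ccin, calicin of the same structure, had 23.5, 315 and 107 CPM. Sun3, a nuclear envelope protein that links the nucleus to the manchette, had 93.0, 323 and 43.6 CPM. Actl9, Actl7a and Spag4 were also above both neighbours, Spag4 by less than 2-fold. The alpha-tubulin genes Tuba3a and Tuba3b were at 504 and 446 CPM in RS.3 and 1297 and 1248 CPM in RS.2, and reads may be shared between these near-identical copies.

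In energy metabolism, 19 of 26 genes were within 2-fold of RS.2, with 2 higher and 5 lower, beside 19.1% and 26.8% of all genes. Scaled to the all-gene median, 3 were higher and 1 lower, beside 26.2% and 9.95%. Gpi1, glucose phosphate isomerase, had 13.1 CPM in RS.2, 235 CPM in RS.3 and 743 CPM in ES, and within RS.3 it had 430.2 CPM in the latest and 40.6 CPM in the earliest 131 cells. Gapdhs, the sperm glyceraldehyde phosphate dehydrogenase, had 156, 317 and 604 CPM. The testis cytochrome oxidase subunits Cox8c and Cox7b2 were lower in RS.3 than in RS.2, by 2.66-fold and 2.63-fold, and higher than in ES, by 3.13-fold and 6.38-fold. Against ES, 14 of 27 genes were higher and 2 lower, beside 54.8% and 6.63% of all genes, or 7 higher and 9 lower relative to the all-gene median, beside 27.7% and 24.0%.

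Among RNA-binding and translation factors, 22 of 29 were within 2-fold of RS.2, 2 were higher and 5 lower, beside 19.1% and 26.8% of all genes. With scaling to the all-gene median, 4 were higher and 1 lower, beside 26.2% and 9.95%. The 2 higher on the CPM scale were Eif4e, the cap-binding initiation factor, and Paip2b, an inhibitor of poly(A)-binding protein. Eif4e had 75.9 CPM in RS.2, 285 CPM in RS.3 and 510 CPM in ES, and its log2 ratio to ES of -0.84 turns to 0.53 in UMIs per cell. Its level was 446 CPM in the latest and 67.5 CPM in the earliest 131 RS.3 cells. Paip2b was highest in RS.3, with 30.7, 112 and 11.8 CPM in RS.2, RS.3 and ES. Ybx2, which stores spermatid mRNAs, had 479 CPM in RS.3, 698 CPM in RS.2 and 494 CPM in ES. Ddx4, a helicase of the chromatoid body, had 53.2 CPM in RS.3, 134 CPM in RS.2 and 12.95 CPM in ES. Against ES, 17 of 28 were higher and 2 lower, beside 54.8% and 6.63% of all genes. Those counts were 9 and 7 relative to the all-gene median, beside 27.7% and 24.0%.

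Of 17 transcription regulators, 12 were higher and 0 lower in RS.3 than in ES on the CPM scale, beside 54.8% and 6.63% of all genes, and 9 were higher and 1 lower relative to the all-gene median, beside 27.7% and 24.0%. Against RS.2, 4 of 18 were higher and 3 lower, beside 19.1% and 26.8%. Those counts were 7 and 1 relative to the all-gene median, beside 26.2% and 9.95%. Crem had 366 CPM in RS.3, 578 CPM in RS.2 and 37.7 CPM in ES. Fhl5, a coactivator of CREM, peaked in RS.3 instead, with 299, 1167 and 379 CPM in RS.2, RS.3 and ES, and was higher late within the stage (1408 CPM in the latest and 824 CPM in the earliest 131 cells). Creb3l4, a membrane-bound CREB family factor, had 722 CPM in RS.3, 423 CPM in RS.2 and 224 CPM in ES. Hsfy2, a heat shock factor relative, had 228 CPM in RS.3, 110 CPM in RS.2 and 4.71 CPM in ES. Tbpl1, a TBP-like factor required for spermiogenesis, was 3.73-fold lower in RS.3 (241 CPM) than in RS.2 (899 CPM) and 9.52-fold higher than in ES.

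Ubiquitin pathway genes, which serve histone removal and the shedding of cytoplasm, included 7 of 27 higher and 3 lower in RS.3 than in RS.2. The all-gene shares were 19.1% and 26.8%. Relative to the all-gene median, 13 were higher and 1 lower, beside 26.2% and 9.95%. Otub2, a deubiquitinase, had 73.0 CPM in RS.2, 774 CPM in RS.3 and 1728 CPM in ES, with a log2 ratio to ES of -1.16 that turns to 0.21 in UMIs per cell. Ubqlnl, a ubiquilin-like protein, had 25.7 CPM in RS.3 and 0.322 CPM (3 UMIs) in RS.2, a log2 ratio of 6.10 (4.75 to 8.61). Rnf133, a ubiquitin ligase of the spermatid endoplasmic reticulum, was 6.36-fold higher in RS.3 than in RS.2. Rnf151, a ligase of the acrosome, had 1247, 2161 and 456 CPM in RS.2, RS.3 and ES. Against ES, 9 of 26 genes were higher and 3 lower, beside 54.8% and 6.63% of all genes. Those counts were 4 and 10 relative to the all-gene median, beside 27.7% and 24.0%.

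Of 20 chaperone genes, 4 were higher and 7 lower in RS.3 than in RS.2 on the CPM scale, near the 19.1% and 26.8% of all genes. Those counts were 6 and 2 relative to the all-gene median, beside 26.2% and 9.95%. Calr3, the testis calreticulin, had 9.45 CPM in RS.2, 277 CPM in RS.3 and 78.9 CPM in ES. Dnajb8, a DNAJ co-chaperone, had 122, 1209 and 2618 CPM, and its log2 ratio to ES of -1.12 turns to 0.26 in UMIs per cell. Dnajb7 had 47.7, 311 and 158 CPM, and Hspa1l, a testis HSP70, had 9.13, 57.0 and 168 CPM. These were the 4 higher genes. The 7 lower ones included the endoplasmic reticulum chaperones Hspa5 and Hsp90b1, the cytosolic Hsp90aa1 and the spermatocyte HSP70 Hspa2. Hspa5 had 80.5 CPM in RS.2, 14.3 CPM in RS.3 and 43.6 CPM in ES, and 5.00 CPM in the latest 131 RS.3 cells. Its log2 ratio to ES was -1.62 (-2.16 to -1.03), and -0.25 in UMIs per cell.

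Sperm ADAM proteins and their partners, membrane proteins of the sperm surface, had 4 of 19 genes higher and 2 lower in RS.3 than in RS.2, beside 19.1% and 26.8% of all genes. Scaled to the all-gene median, 5 were higher and 1 lower, beside 26.2% and 9.95%. The 4 higher on the CPM scale were Adam4, Adam6a, Adam6b and Pmis2, a protein needed for sperm migration into the oviduct. Pmis2 had 177 CPM in RS.2, 440 CPM in RS.3 and 243 CPM in ES. Adam6a and Adam6b, near-identical copies that may share reads, had 42.9 and 19.3 CPM in RS.3 and 7.95 and 2.47 CPM in RS.2. Adam2, a fertilin subunit, was 2.41-fold lower in RS.3 than in RS.2.

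Genes of the meiotic divisions were mostly lower in RS.3 than in RS.2 on the CPM scale. Of 15 that passed the filter against RS.2, 12 were at least 2-fold lower and 1 higher in RS.3, beside 26.8% and 19.1% of all genes. Relative to the all-gene median, 5 were lower and 1 higher, beside 9.95% and 26.2%. Plk1, a mitotic kinase, had 10.4 CPM in RS.3 and 45.5 CPM in RS.2, and Cenpe, a kinetochore kinesin, 2.83 CPM in RS.3 and 18.3 CPM in RS.2. The exception was Kif2c, a microtubule-depolymerising kinesin, with 15.5 CPM in RS.2, 106 CPM in RS.3 and 252 CPM in ES. Its log2 ratio to ES of -1.26 turns to 0.12 in UMIs per cell. Of 16 meiotic prophase genes, 6 were lower and 2 higher in RS.3 than in RS.2, beside 26.8% and 19.1% of all genes. Relative to the all-gene median, 1 was lower and the same 2 were higher, beside 9.95% and 26.2%. Syce2, a synaptonemal complex protein, had 16.7 CPM at the first meiotic division, 102 CPM in RS.2, 421 CPM in RS.3 and 567 CPM in ES. Msh4, a recombination factor, was the other, with 10.9 CPM in RS.3 and 3.54 CPM in RS.2.

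A set of genes had its highest level in RS.3 among the wild-type stages with at least 50 cells. Of 6047 genes with at least 10 CPM in RS.3, 465 (7.69%) were at least 2-fold above every other such stage. The 12 with the largest such ratio had 11.96 to 373 CPM in RS.3 and at most 16.5 CPM in ES and 13.1 CPM in RS.2. Cd46, a complement regulator that mice express mainly on the acrosomal membrane, had 0.215 CPM (2 UMIs) in RS.2, 31.0 CPM in RS.3 and 0 UMIs in ES, a log2 ratio of 6.85 to RS.2 and at least an 8.77-fold difference from ES. Cd59b, the testis form of another complement regulator, had 0.966, 97.3 and 3.53 CPM in RS.2, RS.3 and ES. Flt1, a VEGF receptor, had 1.50, 55.8 and 2.35 CPM. Trh, the precursor of thyrotropin-releasing hormone, had 0.537 CPM in RS.2, 11.96 CPM in RS.3 and 0 UMIs in ES, at least 3.39-fold lower in ES. Unc80, an auxiliary subunit of a sodium leak channel, had 0.430 and 19.9 CPM in RS.2 and RS.3 and 0 UMIs in ES. Pabpc1l, an embryonic poly(A)-binding protein, had 104 UMIs in RS.3 and 0 in RS.2 and ES, so it was at least 41.5-fold higher than in RS.2.

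These peak genes did not share one course within the stage. Cd46 had 51.7 CPM in the latest and 1.32 CPM in the earliest 131 RS.3 cells, and Slc36a3 164 CPM in the latest and 25.2 CPM in the earliest. Flt1 and Trh were highest in the middle 131 cells, with 76.1 and 18.7 CPM there. The unannotated transcript 1700017M07Rik also had its highest level in the middle cells, at 122 CPM, and had 0 UMIs in ES. The unannotated 4930405D11Rik, the most abundant of the 12 by UMIs, had 154, 399 and 517 CPM over the earliest, middle and latest cells.

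**Figure D4:**
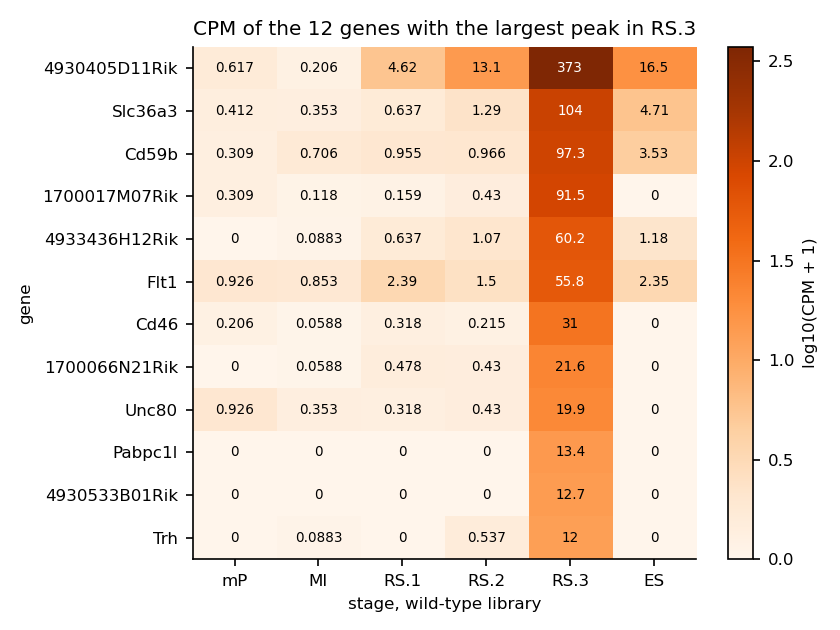
CPM of the 12 genes with the largest ratio of RS.3 to every other wild-type stage of at least 50 cells, in pachytene (mP), the first meiotic division (MI) and 4 spermatid stages; colour is log10(CPM + 1) and the number in each cell is the CPM. All 12 have 11.96 CPM or more in RS.3 and 16.5 CPM or less in ES.

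The opposite pattern was rare: 11 of 3292 genes with at least 10 CPM in RS.2 and ES (0.334%) were at least 2-fold lower in RS.3 than in both. The 12 lowest included Hspa5 and the mitochondrially encoded mt-Nd1, mt-Nd2, mt-Nd4 and mt-Nd4l, subunits of respiratory complex I. mt-Nd4 had 94.3 CPM in RS.2, 31.1 CPM in RS.3 and 65.9 CPM in ES. The mitochondrial share of the median cell differed little, at 0.0153% in RS.3 and 0.0175% in ES. Txndc12, an endoplasmic reticulum thioredoxin, had 11.3, 3.34 and 17.7 CPM. These dips rest on few UMIs, 9 to 56 in ES for each of the 12 genes, and in UMIs per cell the log2 ratio to ES is -0.25 for Hspa5, -1.05 for Txndc12 and -0.10 for Cuta and above 0 for Akt1s1, Top2a, Mier3, Gml, Qk, mt-Nd1, mt-Nd2, mt-Nd4 and mt-Nd4l.

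The genes with the most extreme ratios to RS.2 were nearly all at or near 0 in 1 of the stages. Cntn1, a neural cell adhesion molecule, had 1027 UMIs (132 CPM) in RS.3 and 1 UMI in RS.2, a log2 ratio of 9.68 (7.78 to 15.57). Acot12, an acetyl-CoA thioesterase, had 44.4 CPM in RS.3 and 0 UMIs in RS.2, at least 138-fold higher. Wbp2nl, a sperm protein linked to egg activation, had 28.8 CPM in RS.3 and 0 UMIs in RS.2, at least 89.4-fold higher. At the other end, Ssxb2, an X-linked gene, had 2 UMIs in RS.3 and 116 in RS.2, a log2 ratio of -5.28 (-8.66 to -3.71). Against ES, 1700001P01Rik had 6963 UMIs (895 CPM) in RS.3 and 1 UMI in ES. Hist1h2bp, an H2B histone gene, had 303 CPM in RS.3 and 320 CPM in RS.2 but 1 UMI in ES. Srgn, the proteoglycan serglycin, had 90.6 CPM in RS.3 and 0 UMIs in ES, at least 25.7-fold higher. Car2, carbonic anhydrase 2, marked the far end of the stage, with 335 CPM in the latest and 0.883 CPM in the earliest 131 RS.3 cells, beside 1028 CPM in ES. Lexm, Tmod4 and Ccl5 had 0 UMIs in RS.2 and were 4.16-fold, 11.9-fold and 11.9-fold lower in RS.3 than in ES.

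The sex chromosomes are silenced in meiosis and partly reactivated in spermatids, and among the stages of mid pachytene to ES the X-linked share was highest in RS.3. X-linked genes took 0.0165% of UMIs at the first meiotic division, 0.288% in RS.1, 0.803% in RS.2, 1.30% in RS.3 (1.29 to 1.31%) and 0.975% in ES. Of 153 X-linked genes, 63 were at least 2-fold higher and 17 lower in RS.3 than in RS.2, against 19.1% and 26.8% of all genes. Those counts were 85 and 4 relative to the all-gene median, beside 26.2% and 9.95%. Against ES, 77 of 143 X-linked genes were higher and 10 lower, beside 54.8% and 6.63% of all genes. Scaled to the all-gene median, 63 were higher and 50 lower than in ES, beside 27.7% and 24.0%. Y-linked genes took 0.0207% in RS.1, 0.0486% in RS.2, 0.0383% in RS.3 and 0.00742% in ES. Mitochondrially encoded genes took 0.699%, 0.241%, 0.0651% and 0.103% of summed UMIs in the same 4 stages. The median cell had 0.619%, 0.180%, 0.0153% and 0.0175%, so RS.3 and ES were close by that measure and far below their summed shares. Of 10 such genes that passed the filter, all 10 were at least 2-fold lower in RS.3 than in RS.2, beside 26.8% of all genes. Relative to the all-gene median, 6 of the 10 were lower, beside 9.95% of all genes. Ribosomal protein genes took 6.17% in RS.2, 4.42% in RS.3 and 3.6% in ES. All of these are shares of all UMIs, of which the 4 packaging genes took 6.89% in RS.3 and 33.4% in ES. The order of RS.3 and ES for X-linked and ribosomal protein genes depends on including those 4 genes.

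**Figure D5:**
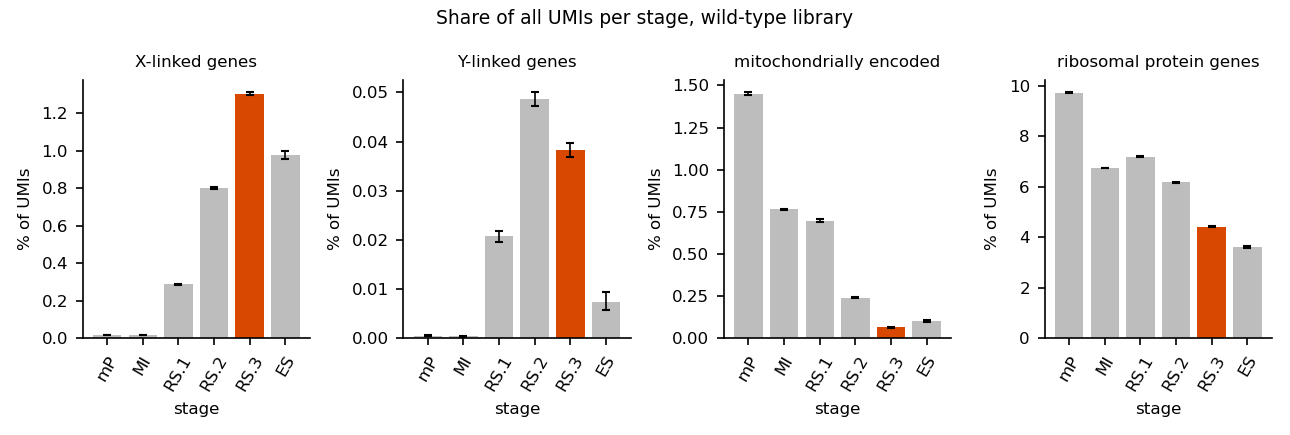
Percent of all UMIs from X-linked, Y-linked, mitochondrially encoded and ribosomal protein genes in 6 wild-type stages, RS.3 in orange; bars start at 0 and error bars are exact 95% binomial intervals for counting error. Among these stages, the X-linked share of all UMIs is highest in RS.3 at 1.30%, and the mitochondrially encoded share of summed UMIs lowest at 0.0651%. The 4 packaging genes take 6.89% of UMIs in RS.3 and 33.4% in ES, which lowers the other shares more in ES. The median cell's mitochondrial share is 0.0153% in RS.3 and 0.0175% in ES.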

How the data were processed

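The authors' deposited matrices hold UMI counts per gene and cell, whole numbers with no normalisation, and their deposited cell table gives each cell's UMI count, percent of mitochondrial UMIs, cluster, stage and pseudotime score, per the file headers. The submitters' processing notes name Cell Ranger 3.1.0, Seurat 3.2.0 and the build mm10. The sources used here do not say how the pseudotime score was computed. UMIs of wild-type cells were summed per stage and scaled to CPM. Log2 ratios added 0.5 UMIs to each sum. Genes needed 10 CPM in the higher stage, and a difference was counted at 2-fold. Ratios of sums have exact conditional binomial intervals, sums exact Poisson and shares exact Clopper-Pearson intervals, all 95% and for counting error only. A count of 0 was set at a bound of 3 UMIs. The ratio code was tested on simulated data. No doublet caller was run, and cells above the 90th percentile of UMIs were left out as an alternative. Genes were named by rule: the 12 most extreme per comparison, peak, trough, level and trend, plus all list members. The stage, its markers and the lists were chosen with earlier results of these data known. Of 31053 genes, 30934 were placed by GENCODE M21 (GRCm38), and 36 symbols belong to 2 gene IDs. Python 3.11.15, numpy 2.4.6, scipy 1.17.1 and pandas 2.3.3 were used.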

Additional observations from a re-analysis of the deposited data

How the results depend on the processing

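No paired analysis was possible because each genotype had 1 library, and the stages compared all came from the same wild-type library. The counts of genes at least 2-fold higher and lower in RS.3 than in RS.2 (1392 and 1953) were 676 and 674 with a minimum of 50 CPM and 4663 and 6263 with no filter, which test fewer and more genes. The lower count was 726 with median-of-ratios scaling and 1003 in UMIs per cell, a scale added after seeing the data. Against ES, the counts (3419 and 414) were 1488 and 239 at 50 CPM, 6161 and 3732 with no filter, 1730 and 1498 with median-of-ratios scaling, and 5418 and 64 in UMIs per cell. With the 20 genes of most UMIs left out of the totals, 871 genes were lower than in ES. Of the 3345 genes called against RS.2, 63.3% kept their call with median-of-ratios scaling, and of the 3833 called against ES, 55.9% did. Of 127 genes named in the text and tested against ES, 34 changed sign in UMIs per cell, 17 of them within 2-fold on the CPM scale, and 14 changed sign with median-of-ratios scaling, 11 of them within 2-fold. Among those at least 2-fold apart, and list medians as far apart, log2 ratios of RS.3 over ES that changed sign were those of Tssk1 (-0.12), Adam6a (-0.12), Rsph1 (-0.027), the 5 stage markers' median (-0.12) and the kinase list's median (-0.13) with median-of-ratios scaling. The meiotic division list's median was -0.17 at 50 CPM. Top2a was at 0.23 with cells thinned to equal UMIs, 0.77 in the middle 50% of cells and 0.35 in UMIs per cell. Also in UMIs per cell, the elongating marker median was 0.28, Spata3 0.32, H2al2a 0.079, Akap4 0.061, Kif2c 0.12, Tssk3 0.16, Cabs1 0.20, Dnajb8 0.26, Akt1s1 0.042, Spem1 0.017, Mier3 0.23, Otub2 0.21, Gml 0.30, Qk 0.028, mt-Nd1 0.27, mt-Nd2 0.19 and mt-Nd4 0.28. The cause of these changes was not tested. ES had 111 cells and 849403 UMIs, which limits ratios to ES for low genes.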

Other observations

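Some genes known from other cells or stages had UMIs in RS.3 but few or none in RS.2. Sohlh1, a transcription factor of spermatogonia, had 0 UMIs in RS.2, 11.1 CPM in RS.3 and 1.18 CPM in ES, and RS.3 was at least 34.3-fold higher than RS.2. It was picked after its values were seen from 13 spermatogonium markers, whose summed level was 1218 CPM in RS.2, 701 CPM in RS.3 and 97.7 CPM in ES. Most of that sum was Dmrtb1, a transcription factor of spermatogonia, with 1209 CPM in RS.2, 673 CPM in RS.3 and 81.2 CPM in ES. C1qb, a complement component of macrophages, had 0.107 CPM in RS.2, 24.0 CPM in RS.3 and 44.7 CPM in ES. The 9 macrophage and red cell markers summed to 24.7 CPM in RS.3, so that C1qb made up nearly all of that level, and 5 of the 9 had 0 UMIs. Apoe, an apolipoprotein, had 0.537 CPM in RS.2, 10.0 CPM in RS.3 and 140 CPM in ES. Whether other cells contribute these UMIs was not tested. Cabs1, a calcium-binding protein of spermatids, had 9.45 CPM in RS.2, 356 CPM in RS.3 and 801 CPM in ES.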
